A study of Mus musculus with 3 samples.

Results

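MHC class I molecules display peptides from inside a cell on its surface. The 10 genes described here encode this display and its supply, and they were chosen by name from the 54532 genes of the expression table. They are 6 heavy chain genes (H2-K1, H2-D1, H2-Q4, H2-Q6, H2-Q7 and H2-T23), the light chain B2m, the peptide transporter genes Tap1 and Tap2, and the regulator Nlrc5. RNA came from the hippocampus of 10-month-old mice that the labels place on a C57BL/6 background, with 1 RNA-seq library for each of 3 genotypes. WT is the wild type, PS19 carries a mutant human tau transgene driven by the mouse prion protein promoter, and PS19 Zbp1+- carries that transgene with 1 Zbp1 allele lost. Zbp1 encodes a sensor of left-handed nucleic acids, and the comparisons ask what the tau transgene and a lower Zbp1 dosage go along with. The labels do not give sex or say whether animals were pooled.

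In the endoplasmic reticulum a heavy chain pairs with B2m, and a peptide carried in by the Tap1 and Tap2 transporter completes the complex before it travels to the surface. Interferons induce most of these genes, and Nlrc5 is a coactivator that acts at class I promoters through factors bound to conserved promoter boxes. In healthy brain, class I expression is low, and it is best known in microglia and endothelial cells, with lower levels reported in neurons. H2-K1 and H2-D1 are the classical heavy chains of this strain. H2-Q4, H2-Q6, H2-Q7 and H2-T23 are non-classical ones, of which H2-T23 encodes Qa-1, a ligand of inhibitory receptors on natural killer and T cells.

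Upstream sequences are shown for H2-K1, H2-Q7 and B2m because they carry the promoter boxes of a classical heavy chain, a non-classical heavy chain and the light chain, genes that were all higher in PS19 than in the other libraries. Each is the stretch just before the RefSeq start site in build GRCm38.p6, written 5′ to 3′, and capitals mark motif matches on either strand. They lie at chr17:34000348-34000597 (minus strand), chr17:35438905-35439154 (plus strand) and chr2:122147437-122147685 (plus strand).
H2-K1: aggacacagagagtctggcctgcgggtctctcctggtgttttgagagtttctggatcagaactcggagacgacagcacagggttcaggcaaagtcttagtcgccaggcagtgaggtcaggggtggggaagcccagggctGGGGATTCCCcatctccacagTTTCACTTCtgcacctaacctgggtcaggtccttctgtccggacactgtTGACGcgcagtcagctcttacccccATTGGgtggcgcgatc
H2-Q7: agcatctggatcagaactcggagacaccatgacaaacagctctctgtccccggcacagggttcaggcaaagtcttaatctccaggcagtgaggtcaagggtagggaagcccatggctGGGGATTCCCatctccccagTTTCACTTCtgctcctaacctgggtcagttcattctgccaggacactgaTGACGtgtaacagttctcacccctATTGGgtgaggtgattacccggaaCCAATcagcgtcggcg
B2m: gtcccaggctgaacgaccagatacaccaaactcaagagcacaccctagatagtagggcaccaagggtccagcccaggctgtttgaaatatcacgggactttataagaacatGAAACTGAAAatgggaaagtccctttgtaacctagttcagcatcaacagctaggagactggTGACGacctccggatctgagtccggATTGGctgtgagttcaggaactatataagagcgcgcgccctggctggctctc
The motifs searched were an enhancer A box, a long interferon element, a short interferon element (GAANNGAAA), the core of a cyclic AMP element (TGACG) and a CCAAT box (CCAAT). The enhancer A box matched as GGGGATTCCC in H2-K1 and H2-Q7, and the long interferon element as GAAACTGAAA in B2m. No capitals of different motifs overlap in the sequences shown.

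RefSeq windows were found for 8 of the 10 genes, and Tap2 and Nlrc5 are named only. Of these 8, 5 held the enhancer A box (H2-K1, H2-D1, H2-Q4, H2-Q6 and H2-Q7), which occurs in 0.240% of 32851 upstream windows of 250 bases. The same 5 genes held the short interferon element, which 6.31% of all windows hold. Its first letter lay 21 bases after that of the enhancer A box in 4 of these genes and 20 bases after it in H2-Q7. B2m and H2-T23 held the long interferon element instead, which 2.98% of windows hold, so that 7 of the 8 genes had one of the interferon elements and Tap1 had neither. TGACG was in 6 of 8 windows (17.8% of all windows) and CCAAT in 8 of 8 (33.8% of all windows). These matches describe letters in the windows and are not measured binding sites. Not every window lies upstream of the gene in GENCODE M21. The H2-D1 and H2-T23 windows overlap exons annotated for those genes, and the H2-Q4 window overlaps the antisense gene Gm11131. The Tap1 window ends at 34187555 and only just reaches Tap1, which starts at 34187553. It overlaps exons of Psmb9, a gene on the opposite strand. H2-K1 has a second RefSeq window, in which the enhancer A box starts 125 bases before the start site rather than 111.

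The values are FPKM as deposited, a level per length of gene and per size of library. Whole reads were recovered from them and numbered 16746085 for WT, 16400328 for PS19 and 17109734 for PS19 Zbp1+-. With 1 library per genotype, no difference has a replicate check and no p-value is given, so each value describes these libraries. Intervals are exact (Clopper-Pearson) 95% intervals of read ratios and cover counting error only. Where 3 values follow one another, the first is WT, the next PS19 and the last PS19 Zbp1+-. Zbp1, the targeted gene, had 5, 91 and 0 reads, and in the last library counting error allows up to 0.0537 FPKM, so these reads do not settle whether 1 allele was intact. The PS19 Zbp1+- library held 0 Xist reads and 1887 reads of Y-linked genes, whereas WT and PS19 held 11062 and 13350 Xist reads and 0 Y-linked reads, so genotype and sex cannot be told apart in its comparisons. Hippocampal neuron markers were present in each library, with summed FPKM values of 552, 515 and 670 over 6 genes.

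Libraries also stood apart in reads of some genes on chromosome 17, which carries the MHC, and of near-identical copies elsewhere. These genes are examples, and no share over all genes of the chromosome is given. Atp6v0c and Rps2 start at 24163866 and 24718116, outside the MHC, while H2-K1 starts at 33996017. Rps2 had 4555, 1943 and 173 reads, while its copy Rps2-ps10 on chromosome 18 had 38, 1248 and 3591. Atp6v0c had 2629, 1253 and 227 reads, and its copy Atp6v0c-ps2 on chromosome 6 had 42, 1785 and 5524. H2-Ea-ps, a class II locus within the MHC, had 0, 85 and 0 reads. Heavy chain reads were counted against the reference alleles, and whether the MHC alleles of these animals match the reference, or differ between the libraries, was not tested. A heavy chain count here is therefore a count of reads assigned to the reference gene.

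The heavy chain genes were highest in PS19 and lowest in PS19 Zbp1+-. H2-K1 (ENSMUSG00000061232, chromosome 17, 33996017 to 34000333, minus strand) stood at 15.8, 32.5 and 3.97 FPKM, with 711, 1465 and 164 reads. H2-D1 (ENSMUSG00000073411, chromosome 17, 35262730 to 35267499, plus strand) stood at 18.8, 40.6 and 4.88 FPKM, with 835, 1811 and 199 reads. Both classical genes thus stood at about the same level as each other in each library and differed between libraries by nearly the same ratios. The PS19 to WT read ratio was 2.06 for H2-K1 (95% interval 1.88 to 2.25) and 2.16 for H2-D1 (1.99 to 2.35). The PS19 Zbp1+- to PS19 ratio was 0.122 for H2-K1 (0.103 to 0.144) and 0.120 for H2-D1 (0.103 to 0.139).

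The 3 non-classical Q region genes described here were lower in level and higher in PS19 by larger ratios. H2-Q4 (ENSMUSG00000035929, chromosome 17, 35379617 to 35385290, plus strand) had 2.30, 7.35 and 1.17 FPKM, from 103, 330 and 48 reads. H2-Q6 (ENSMUSG00000073409, chromosome 17, 35424850 to 35430055, plus strand) had 1.17, 5.72 and 0.818 FPKM, from 42, 206 and 27 reads. H2-Q7 (ENSMUSG00000060550, chromosome 17, 35439155 to 35443773, plus strand) had 0.489, 2.01 and 0.252 FPKM, from 36, 148 and 17 reads. All 3 were highest in PS19 and lowest in PS19 Zbp1+-, and H2-Q6 and H2-Q7 are known as sources of the Qa-2 antigen. The PS19 to WT read ratio was 4.89 for H2-Q6 (95% interval 3.50 to 6.99) and 4.10 for H2-Q7 (2.83 to 6.08). Summed over these 3 Q genes, reads in PS19 were 3.77 times those in WT (95% interval 3.20 to 4.47), against 2.11 (1.99 to 2.25) for H2-K1 and H2-D1 together. These intervals do not overlap, so within these libraries these 3 genes together differed more between PS19 and WT than the classical genes did beyond counting error. This did not hold across the Q region and was not particular to it. H2-Q1 had 16 reads in WT and 14 in PS19, and H2-Q5 had 12 and 36. Outside the region, the ratios of H2-M3 (3.62, 2.43 to 5.53) and H2-T23 (2.73, 2.30 to 3.25) also lay above the classical pair. That of H2-T22 (1.44, 1.25 to 1.67) lay below it.

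H2-T23 (ENSMUSG00000067212, chromosome 17, 36029773 to 36032855, minus strand) had 3.61, 9.85 and 1.09 FPKM, from 180, 492 and 50 reads. Its PS19 to WT ratio was 2.73 (95% interval 2.30 to 3.25), and its PS19 Zbp1+- to PS19 ratio of 0.111 (0.0813 to 0.149) was the lowest estimate among the 6 heavy chain genes, with an interval that overlaps those of H2-K1 and H2-D1. H2-D1 made up the largest part of the reads of the 6 heavy chain genes in each library, at 43.8%, 40.7% and 39.4%. H2-Q6 took 2.20% of these reads in WT (exact 95% interval 1.59% to 2.97%). It took more in PS19, at 4.63% (4.03% to 5.29%), and a like share in PS19 Zbp1+-, at 5.35% (3.55% to 7.68%).

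**Figure D1:**
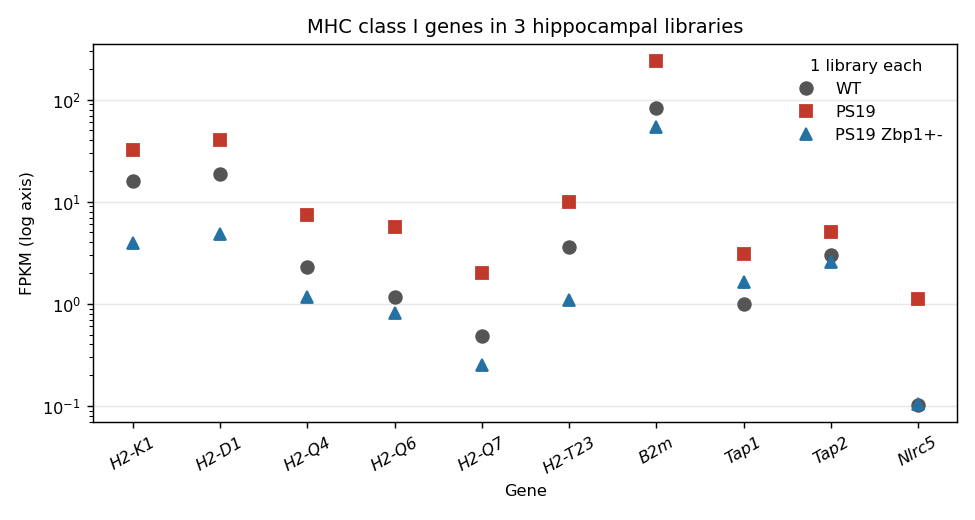
FPKM (log axis) of the 10 genes, with 1 point per library: circles for WT, squares for PS19 and triangles for PS19 Zbp1+-. The PS19 point is the highest for every gene, the PS19 Zbp1+- point is below WT for the 6 heavy chain genes, B2m and Tap2, above it for Tap1, and at 0.104 against 0.102 for Nlrc5.

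The heavy chain genes resemble one another, so the split of reads among them is uncertain. In the longest GENCODE M21 transcript of H2-Q6, 651 of 2036 distinct 50-base words also occur in transcripts of other genes, most often H2-Q7. The share was 27.1% for H2-Q7, 14.3% for H2-D1 and 8.11% for H2-K1, while H2-Q4 shared 561 of 2547 words and H2-T23 388 of 2593. It was 0% for B2m and Nlrc5, and Tap1 and Tap2 shared 0.647% and 0.737% of their words, in each case with one another. Summing reads over all 35 annotated class I heavy chain genes and pseudogenes, which is less exposed to that split, gave 2516, 5396 and 944 reads. By these sums PS19 stood at 2.14 times WT (95% interval 2.04 to 2.24). PS19 Zbp1+- stood at 0.191 times PS19 (0.178 to 0.205) and at 0.409 times WT (0.379 to 0.441). Over the 6 heavy chain genes described here the ratios to PS19 and to WT were lower, at 0.124 (0.113 to 0.136) and 0.289 (0.261 to 0.319). The 29 other heavy chain genes and pseudogenes, with 609, 944 and 439 reads, had ratios of 0.508 (0.453 to 0.569) and 0.786 (0.693 to 0.890).

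B2m, the light chain that every class I molecule needs, was the most abundant of the 10 genes. B2m (ENSMUSG00000060802) lies on chromosome 2 (122147686 to 122153083, plus strand), outside the MHC. It stood at 83.6, 239 and 54.1 FPKM, from 1241, 3547 and 737 reads. Its reads in PS19 were 2.85 times those in WT (95% interval 2.67 to 3.05). PS19 Zbp1+- had 0.227 times the B2m reads of PS19 (0.209 to 0.246) and 0.647 times those of WT (0.590 to 0.710), so the shortfall against WT was smaller than for H2-K1 and H2-D1. The FPKM of B2m was 1.99, 2.43 and 4.45 times the summed FPKM of the 6 heavy chain genes, which was 42.1, 98.0 and 12.2. Over all 35 annotated heavy chain genes and pseudogenes the summed FPKM was 58.4, 122 and 22.6. The multiples are therefore lower with all of these genes, most of all in PS19 Zbp1+-, and depend on which genes are summed.

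The transporter genes differed less between PS19 and PS19 Zbp1+- than the chains they serve. Tap1 (ENSMUSG00000037321, chromosome 17, 34187553 to 34197225, plus strand) had 0.995, 3.06 and 1.64 FPKM, from 94, 290 and 142 reads. Tap2 (ENSMUSG00000024339, chromosome 17, 34203527 to 34216321, plus strand) had 2.99, 5.02 and 2.57 FPKM, from 195, 328 and 154 reads. The PS19 to WT read ratio was 3.08 for Tap1 (95% interval 2.43 to 3.93) and 1.68 for Tap2 (1.40 to 2.01), so the partners of the transporter differed from each other beyond counting error. Against PS19 they were alike, at 0.535 (0.434 to 0.656) for Tap1 and 0.513 (0.421 to 0.623) for Tap2. Both together gave 0.523 there (0.454 to 0.602), against 0.121 (0.108 to 0.135) for H2-K1 and H2-D1.

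Some members overlap genes on the opposite strand, and since the strand setting of the counting is not given in the sources used here, their shared reads cannot be told apart. Tap1 shares 212 bases with Psmb9, which had 36, 80 and 37 reads. B2m lies inside Patl2, with 1, 1 and 0 reads, and Tap2 overlaps Gm15821, with 6, 9 and 4. These neighbours had fewer reads than the members they overlap in every library.

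Nlrc5 (ENSMUSG00000074151, chromosome 8, 94434356 to 94527272, plus strand) was the least abundant of the 10 genes and had the largest read ratio between PS19 and WT. It had 15, 163 and 14 reads, that is 0.102, 1.11 and 0.104 FPKM. PS19 stood at 10.8 times WT (95% interval 6.38 to 19.8), and PS19 Zbp1+- stood at 0.0938 times PS19 (0.0502 to 0.162) and level with WT. A lincRNA on the opposite strand that shares 748 bases with it, 9330175E14Rik, had 3, 21 and 0 reads.

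**Figure D2:**
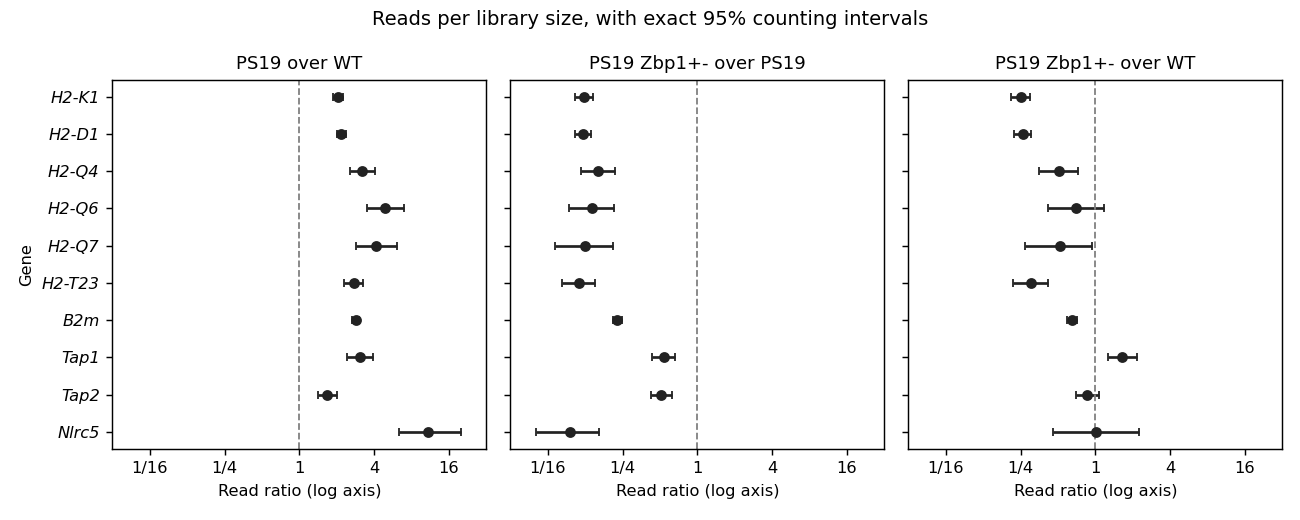
Ratio of reads per library size (log axis) for each gene in the 3 comparisons, with exact 95% counting intervals as bars. All 10 ratios lie above 1 for PS19 over WT and below 1 for PS19 Zbp1+- over PS19, while for PS19 Zbp1+- over WT they run from 0.251 for H2-K1 to 1.65 for Tap1.

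To place the 10 genes among all others, differences of log2(FPKM + 1) were taken over protein-coding genes that reached an FPKM of 1 in one or both libraries, and a gene was counted as higher or lower at 1 log2 unit or more. This scale understates changes of weakly expressed genes such as Nlrc5. Between PS19 and WT all 10 genes entered and 7 were counted as higher, where 2.2% of the 12703 genes compared were. H2-Q7, Tap1 and Nlrc5 entered this comparison only through PS19, so they could enter only as higher there. H2-Q7 and Tap1 are among the 7. With no filter on low values 7 were also counted, where 1.61% of all genes were. On this scale a gene below an FPKM of 1 in both libraries cannot differ by 1 log2 unit. Dropping the filter could therefore not change which genes were counted, and it is no check on them. None of the 10 was counted as lower, where 0.291% of all genes were. H2-K1, at 0.995 log2 units, lay just under the threshold, and Nlrc5 at 0.94 and Tap2 at 0.59 were the others not counted. The median difference of the 10 genes was 1.05, and that of all genes compared was -0.03. H2-Q6 had the largest difference of the 10, at 1.63.

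Between PS19 Zbp1+- and PS19, 7 of 10 genes were counted as lower, where 5.16% of the 12772 genes compared were. H2-Q6, H2-Q7 and Nlrc5 entered this comparison only through PS19, so they could enter only as lower in PS19 Zbp1+-. H2-Q6 and H2-Q7 are among the 7. With no filter on low values 7 were also counted, where 3.86% of all genes were, and here too the scale fixed that count in advance. No member was counted as higher, where 2% of all genes were. The 7 were the 6 heavy chain genes and B2m, from -2.82 log2 units for H2-D1 to -1.26 for H2-Q7. Nlrc5 at -0.93, Tap2 at -0.75 and Tap1 at -0.62 were not counted. The median of the 10 was -1.92, against 0.04 for all genes. Of all genes counted in this comparison, 27.9% were higher, and that share was 10.4% after rescaling to TPM and 14.6% with library size taken from total reads. PS19 enters this comparison and the one with WT, so their opposite directions are not independent of each other.

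Between PS19 Zbp1+- and WT, 8 of the 10 genes reached an FPKM of 1, and 3 were counted as lower, where 2.28% of the 12436 genes compared were. H2-Q6 entered only through WT and Tap1 only through PS19 Zbp1+-, and neither was counted. None was counted as higher, where 1.07% of all genes were. The 3 were H2-K1 at -1.76, H2-D1 at -1.75 and H2-T23 at -1.14 log2 units. In reads, PS19 Zbp1+- had 0.251 times the WT level of H2-K1 (95% interval 0.211 to 0.298), 0.260 times that of H2-D1 (0.221 to 0.304) and 0.303 times that of H2-T23 (0.217 to 0.416). H2-Q4 stood at 0.508 (0.353 to 0.722), and the interval of H2-Q6 reached past 1, at 0.701 (0.416 to 1.16). Tap1 went the other way, at 1.65 times WT (1.26 to 2.16), while Tap2 at 0.861 (0.692 to 1.07) and Nlrc5 at 1.02 (0.455 to 2.26) had intervals that include 1. The median of the 8 genes was -0.61, against 0.01 for all genes. Of all genes 133 were counted as higher and 283 as lower, against 207 and 913 after rescaling to TPM and 78 and 374 with total reads.

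**Figure D3:**
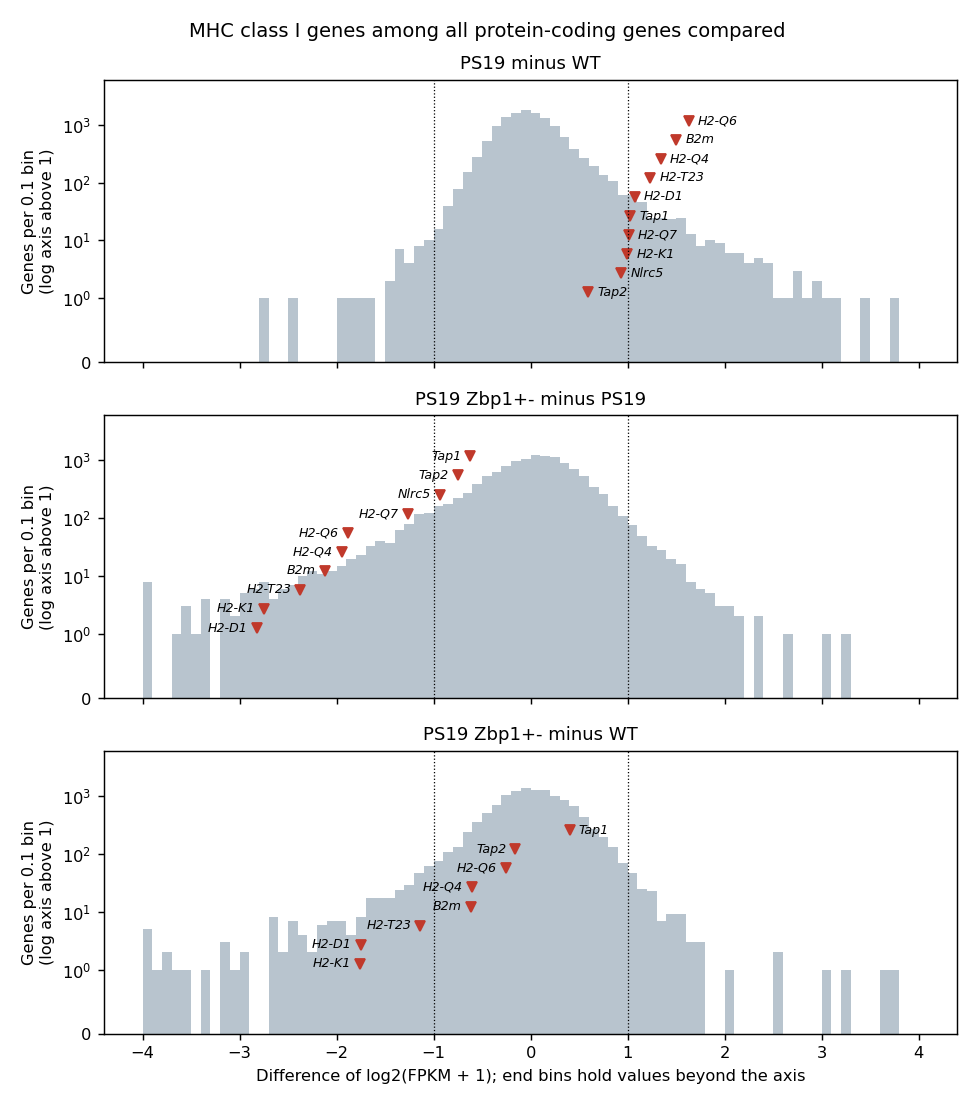
Histograms of the difference of log2(FPKM + 1) over all protein-coding genes compared, in bins of 0.1 with a count axis that is logarithmic above 1, for the 3 comparisons. Triangles mark the members at their difference (their height only separates the labels) and dotted lines mark 1 log2 unit: 7 genes lie beyond the upper line between PS19 and WT, 7 beyond the lower line between PS19 Zbp1+- and PS19, and 3 beyond the lower line between PS19 Zbp1+- and WT.

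Heavy chain genes outside the 10 that were abundant enough to compare differed less between PS19 Zbp1+- and WT than H2-K1, H2-D1 and H2-T23 did. Of 18 listed, 17 were in the table and 3 reached an FPKM of 1 in each comparison. H2-T22 had 315, 455 and 272 reads, or 0.941 times WT in PS19 Zbp1+- (95% interval 0.797 to 1.11). H2-T24 had 71, 189 and 73 reads, or 1.12 times WT (0.797 to 1.58). H2-M3, which presents peptides with a formylated first residue, had 32, 116 and 24 reads, or 0.818 times WT (0.461 to 1.43). H2-T10 had 21, 35 and 23 reads. H2-T24 and H2-M3 were counted as higher in PS19 than in WT, at 1.06 and 1.31 log2 units, where 2.2% of all genes were. H2-M3 was counted as lower in PS19 Zbp1+- than in PS19, at -1.46, where 5.16% of all genes were. The intervals of H2-T22, H2-T24 and H2-M3 for PS19 Zbp1+- over WT lie above those of H2-K1, H2-D1 and H2-T23. They so differ from them by more than counting error. But they overlap those of H2-Q6 (0.701, 0.416 to 1.16) and H2-Q7 (0.515, 0.271 to 0.941), and that of H2-M3 also overlaps that of H2-Q4. H2-Q1 had 16, 14 and 0 reads, but low counts are less certain in PS19 Zbp1+-: of 357 genes with 8 to 12 reads in both other libraries, 57 had none there.

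Genes for proteins that fold, trim and load class I peptides were mostly close between libraries, with exceptions in both directions. Of 12 such genes measured, 0 were counted in either direction in any of the 3 comparisons, where 0.291% to 5.16% of all genes were, so that a count of 0 is near the background. Their median differences were 0.11 for PS19 minus WT, 0.09 for PS19 Zbp1+- minus PS19 and 0.06 for PS19 Zbp1+- minus WT. Single differences ran from -0.82 to 0.61 log2 units over the comparisons. The chaperone Calr had FPKM values of 107, 87.3 and 127, and Canx had 64.2, 64.0 and 67.6. The oxidoreductase Pdia3 had 65.5, 58.2 and 62.6, and Ganab, a glucosidase that trims new glycoproteins, had 33.0, 35.2 and 34.3. Tapbp, which encodes tapasin and was singled out after its values were seen, lies in the MHC and had 12.2, 14.2 and 8.80, or 0.621 times PS19 in PS19 Zbp1+- (95% interval 0.552 to 0.697). Erap1, an aminopeptidase that trims peptides in the endoplasmic reticulum, was also singled out after its values were seen and had 192, 242 and 76 reads. PS19 Zbp1+- had 0.343 times the Erap1 reads of PS19 (0.262 to 0.446) and 0.432 times those of WT (0.326 to 0.566), a difference that the log2(FPKM + 1) scale understates at this low level. In PS19 Zbp1+- against PS19, 7 of the 12 genes were higher and 5 lower. Calr had 1.46 times the reads of PS19 (1.40 to 1.51). Tapbpl, with 83, 111 and 136 reads, stood at 1.34 times PS19 (1.03 to 1.74) and 1.79 times WT (1.35 to 2.38). These were also named after their values were seen.

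Peptides for class I come mainly from the proteasome. Of 11 peptide supply genes compared, 1 was counted as higher in PS19 than in WT, where 2.2% of all genes were. In PS19 Zbp1+- against PS19, 1 was counted as lower, where 5.16% of all genes were. In both cases this was the immunoproteasome subunit gene Psmb8. It had 55, 164 and 16 reads, at 1.04 and -1.71 log2 units, and it is named because it was the one gene counted. The standard subunit genes Psmb5 and Psmb6 had FPKM values of 76.1, 68.4 and 87.5, and of 43.3, 32.3 and 40.3, and Psmb7 had 1218, 797 and 814 reads. Npepps, an aminopeptidase gene, had 23.1, 21.7 and 28.6 FPKM. Between PS19 Zbp1+- and WT, 10 of these genes were compared and 0 were counted, where 1.07% of all genes were higher and 2.28% lower. Medians were 0.01, -0.01 and -0.14 in the order PS19 minus WT, PS19 Zbp1+- minus PS19, and PS19 Zbp1+- minus WT.

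Among 13 transcription factor genes compared, 1 was counted as higher in PS19 than in WT, where 2.2% of all genes were. It was Irf8, at 1.47 log2 units with 98 reads in WT and 487 in PS19. In PS19 Zbp1+- against PS19, Irf8 at -1.24 and Irf9 at -1.18 were among the 3 counted as lower, where 5.16% of all genes were. Irf9 is part of a complex that carries interferon signals to DNA, and Irf8 is a factor of myeloid cells including microglia. Irf8 and Irf9 were picked for naming once their values had been seen. The factors that Nlrc5 works with at the promoter boxes were not counted in any comparison. Rfxap had FPKM values of 15.2, 14.2 and 14.2, Creb1 had 3.73, 4.08 and 3.45, and Nfyb had 887, 689 and 737 reads. Stat2, a partner of Irf9, had 447, 791 and 482 reads. Against WT, PS19 Zbp1+- had 0 of 13 counted in either direction, where 1.07% of all genes were higher and 2.28% lower.

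The listed ligands that induce class I genes had few or no reads. Tnf had 0, 5 and 0. Ifng and Ifnb1 had 0 reads in every library, which by counting error allows up to 0.146 FPKM for Ifng and up to 0.253 FPKM for Ifnb1 in PS19 Zbp1+-, the library with the highest limits. Of the receptors, Ifngr1 had 221, 450 and 162 reads, Ifngr2 had 1086, 803 and 1011, and Ifnar1 had 705, 801 and 910. Tnfrsf1a, a receptor for tumor necrosis factor, had 226, 588 and 232 reads. It was the 1 of 5 genes compared that was counted as higher in PS19 than in WT, at 1.22 log2 units, where 2.2% of all genes were. Ifngr1 and Tnfrsf1a were both counted as lower in PS19 Zbp1+- than in PS19, at -1.14 and -1.09, where 5.16% of all genes were.

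Genes for class I-like molecules, which share the fold but serve other tasks, showed 0 of 3 counted between PS19 and WT. Of all genes 2.2% were higher there and 0.291% lower. Hfe, a regulator of iron uptake, was counted as lower in PS19 Zbp1+- than in both PS19 and WT, at -1.46 and -1.26 log2 units. It had 186, 222 and 38 reads and was the 1 of 3 counted each time, where 5.16% and 2.28% of all genes were. Fcgrt, the neonatal Fc receptor gene, had 433, 461 and 303 reads, Mr1 had 138, 165 and 67, and Cd1d1 had 19, 11 and 15. Of 15 listed genes for class I receptors and related receptors on immune cells, 0 reached an FPKM of 1 in any library. Lilrb4a, an inhibitory receptor gene of myeloid cells whose binding to class I was not tested, had 1, 55 and 3 reads. Cd160 had 13, 27 and 1, and Pirb had 11, 13 and 0.

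**Figure D4:**
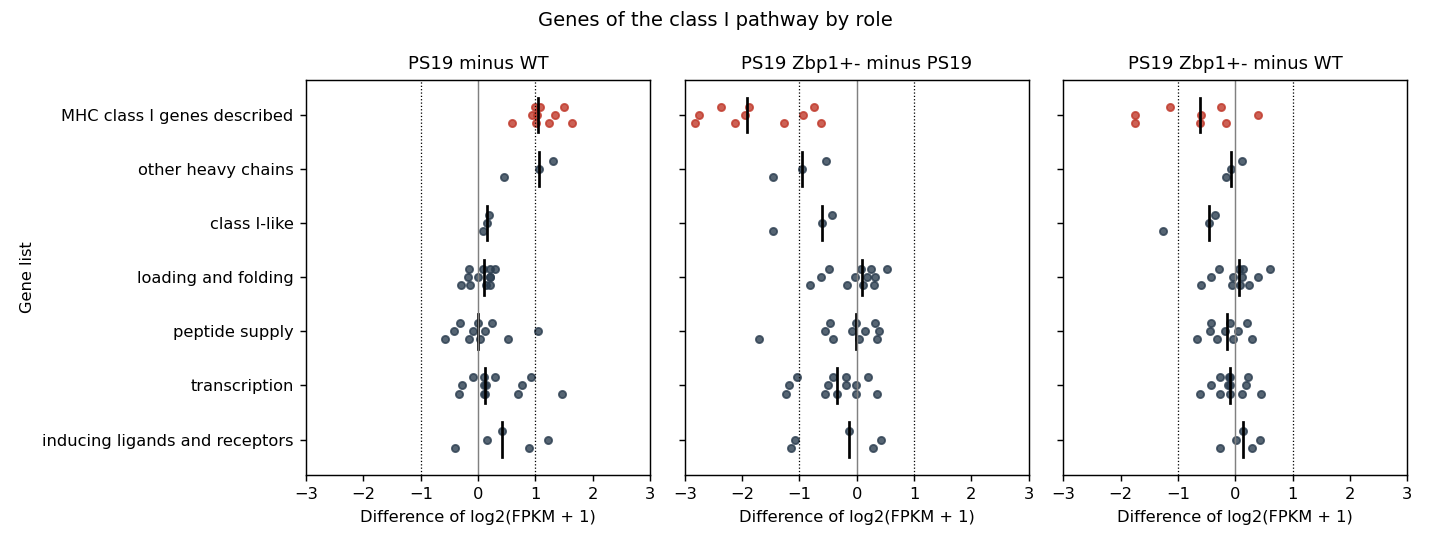
Difference of log2(FPKM + 1) for each gene of 7 lists of the class I pathway, with black bars at list medians and dotted lines at 1 log2 unit, for the 3 comparisons. The members (red) have medians of 1.05, -1.92 and -0.61, while the 12 loading and folding genes stay within 1 log2 unit in all comparisons.

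Markers of several cell types moved with these genes, and in bulk tissue fewer cells of a type and less RNA per cell cannot be told apart. The summed FPKM of 8 microglia markers was 126, 399 and 130. Of the 8, 5 were counted as higher in PS19 than in WT, where 2.2% of all genes were. Between WT and PS19 Zbp1+- the microglia sum was about equal, but its members went different ways. Cx3cr1 stood at 2.64 times WT (95% interval 2.31 to 3.02) and was the 1 of 8 counted, where 1.07% of all genes were counted as higher. C1qa stood at 0.820 (0.740 to 0.910) and Itgam at 0.635 (0.444 to 0.901). H2-K1 and H2-D1 together stood at 0.256 times the WT reads.

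The 6 astrocyte markers summed to 419, 1202 and 518 FPKM, and most of the difference was that of Gfap, at 98.4, 768 and 112. Their median difference between PS19 and WT was 0.46 log2 units, with 2 of 6 counted as higher, where 2.2% of all genes were. The 6 oligodendrocyte markers summed to 753, 1358 and 477. In PS19 Zbp1+- against PS19, 6 of 6 were counted as lower, where 5.16% of all genes were. The 6 endothelial markers had close sums of 56.8, 60.2 and 67.0. In every comparison 0 of 6 were counted, where 0.291% to 5.16% of all genes were, so that a count of 0 is near the background. Yet single genes differed beyond counting error. Between PS19 Zbp1+- and PS19, the read ratio of Cldn5 lay between 1.78 and 2.24 and that of Ly6c1 between 0.566 and 0.742, and Cdh5 stood at 1.87 times WT in PS19 (1.51 to 2.32). Border macrophage markers (6 genes) summed to 2.77, 3.39 and 0.339, with Ms4a7 and Pf4 at 0 in PS19 Zbp1+-, and choroid plexus markers (6 genes) to 3113, 1904 and 10.5. Their part in the class I values was not tested.

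Lymphocyte markers were low and did not share one pattern. The T cell markers Cd3e, Cd3d and Cd3g had 0, 0 and 3 reads in the WT library. In PS19 they had 4, 9 and 5 reads and in PS19 Zbp1+- 0 each, and across the libraries Cd8a had 7, 18 and 0 and Cd8b1 had 3, 5 and 0. The other T cell markers were highest in PS19 Zbp1+-, where Trac, a T cell receptor chain, reached 1.35 FPKM and Lck, a T cell kinase, 1.14 FPKM. Trac had 3, 12 and 20 reads, Cd4 had 5, 10 and 17, and Lck had 25, 50 and 53. Of the 8 T cell markers, 2, 0 and 5 were at 0 by library, and their summed FPKM was 1.03, 2.79 and 2.76. Of 6 natural killer cell markers, 3, 3 and 5 were at 0 in the same order, with sums of 0.440, 0.985 and 0.196. Of 5 B cell markers, 3, 1 and 2 were at 0, with sums of 0.258, 0.349 and 0.754. The part of these cells in the class I values was not tested.

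**Figure D5:**
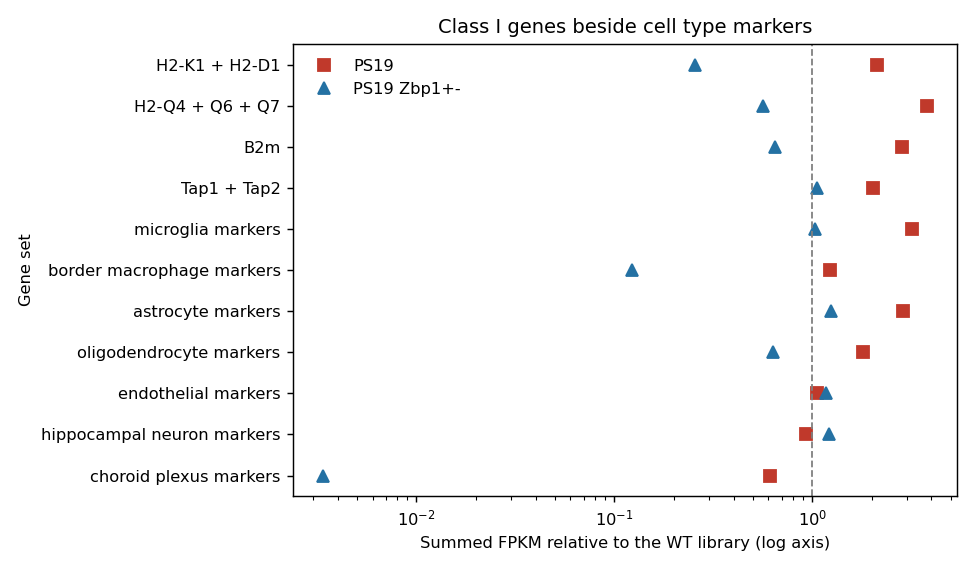
Summed FPKM relative to the WT library (log axis) for class I genes and for marker lists of cell types, with squares for PS19 and triangles for PS19 Zbp1+-. Sums can hide members that differ in opposite ways, as for microglia and endothelial markers, and the microglia triangle is near 1 (130 against 126 FPKM) while that of H2-K1 and H2-D1 is near 0.256, and the choroid plexus triangle is far to the left (10.5 against 3113 FPKM).

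The genes whose pattern was most like that of B2m were sought among 12048 protein-coding genes with at least 200 reads in all. Genes of the pathway and marker lists used above were left out of this search. Likeness was the distance between a gene's 2 differences on the log2(FPKM + 1) scale (PS19 minus WT, and then PS19 Zbp1+- minus PS19) and those of B2m. The 5 closest were Usp18, Cyba, Gbp3, Plekhg1 and Igtp, at distances of 0.094 to 0.16 log2 units. Usp18 had 31, 191 and 7 reads, Gbp3 had 83, 329 and 24, Plekhg1 had 285, 1121 and 160, and Igtp had 57, 217 and 27. Cyba had 113, 368 and 70. The likeness rests on 3 libraries and 2 values per gene, and it holds on this scale, not in read ratios. The scale understates changes of weakly expressed genes such as Usp18, at 0.644, 3.96 and 0.159 FPKM. B2m, with 1241, 3547 and 737 reads, differed by smaller read ratios than Usp18 did.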

How the data were processed

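Hippocampal RNA of 3 mouse genotypes was sequenced, with 1 library each. The authors deposited 1 table of FPKM values per gene. Per the submitters' processing notes, Trim Galore 0.6.5, STAR 2.5.3a, featureCounts 2.0.4 and the build mm39 were used. The gene positions in the table, however, equal those of GENCODE M21 (GRCm38) for 98.3% of 54495 gene IDs, and for 9 of the 10 genes described, H2-K1 being the exception. They are printed as the table holds them, as GRCm38. The roles of these tools, strand setting and treatment of reads with several matches are not given in the sources used here.

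Each FPKM times gene length (a deposited column) was a whole multiple of 1 step per library, within 0.05 for 100% of values, which gave reads and implied library sizes of 17253479 (WT), 17287957 (PS19) and 15826984 (PS19 Zbp1+-). In PS19 Zbp1+- the reads summed over genes, 17109734, exceed the implied library size. In WT (16746085) and PS19 (16400328) they fall below it, so the deposited scaling of that library differs from the others, and the cause was not tested. Read ratios were taken per implied library size, and scaling by total reads was an alternative. Where a library had 0 reads, 3 reads served as the limit. Differences were of log2(FPKM + 1). All members were described. In every other list the genes with most reads were named, up to 4, and others where a count is explained. The members and lists were chosen with earlier results of these data known. Alternatives were pseudocounts of 0.1 and 0.5, thresholds of 1.5-fold and 4-fold, no filter, at least 50 reads, and scaling by total reads, TPM or the median ratio. A pseudocount of 3 reads was added after the data were seen. The procedure was tested on simulated data. The values of 1 gene of the lists are not reported here. Upstream sequences came from RefSeq (GRCm38.p6). Ratios and intervals were computed with scipy 1.17.1 under Python 3.11.15, tables were handled in pandas 2.3.3 with numpy 2.4.6, and plots were drawn in matplotlib 3.10.9.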

Additional observations from a re-analysis of the deposited data

Results flagged for a closer look

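H2-Ea-ps, a class II locus on chromosome 17 that the table lists as an unprocessed pseudogene and that entered no comparison above, had 85 reads in PS19 and 0 reads in both WT and PS19 Zbp1+-. It was picked out because its reads in PS19 were above the level in WT, at least 28.3-fold higher against a limit of 3 reads. The cause was not tested.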

How the results depend on the processing

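No paired analysis was possible because each genotype has 1 library. For the same reason no library could be left out. The scalings moved the median of all genes by over 0.1 log2 units in several cases: with TPM to 0.11 for PS19 minus WT, -0.25 for PS19 Zbp1+- minus PS19 and -0.15 for PS19 Zbp1+- minus WT, and with total reads to -0.12 and -0.13 for the comparisons with PS19 and with WT. The median of the members kept its sign under every alternative run. It was 1.52 and -2.57 with a pseudocount of 0.1, 1.57 and -2.53 with TPM, and 1.55 and -2.73 with a pseudocount of 3 reads, the first value of each pair being PS19 minus WT and the other PS19 Zbp1+- minus PS19. At a 4-fold threshold 0 genes were counted for PS19 minus WT, 4 for PS19 Zbp1+- minus PS19 and 0 for PS19 Zbp1+- minus WT, and at 1.5-fold 5 for the last. Counts under all other alternatives were within 1.5 times those reported, which for no filter was fixed in advance by the scale. The ratio of summed heavy chain reads was 2.34 with TPM and 2.33 over the 6 members for PS19 over WT. It was 0.168 with total reads, 0.157 with TPM and 0.124 over the 6 members for PS19 Zbp1+- over PS19, and 0.367 with total reads, 0.367 with TPM and 0.289 over the 6 members for PS19 Zbp1+- over WT. There were 180 values of single genes under these alternatives. Of these, 133 moved by less than the distance from the middle to an end of the gene's log2 counting interval. The other 47 moved by more, all further from 0. This compares sizes of moves and does not place a value inside its interval. The sign differed in 2 of the 180, both of Nlrc5 for PS19 Zbp1+- minus WT, at -0.01 with total reads and -0.03 with TPM. The lowest counts, those of Nlrc5 and H2-Q7, limit the precision most.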

Other observations

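Class I pseudogenes of chromosome 17 did not share one pattern. These were chosen after their values were seen. In the order used above, H2-K2 had 69, 27 and 10 reads, so that WT was the highest library, unlike for its neighbour H2-K1. H2-T-ps had 21, 18 and 0 reads. H2-Q5, listed as a polymorphic pseudogene, had 12, 36 and 6 reads, with PS19 the highest as for its neighbours H2-Q4 and H2-Q6.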
